A study of Homo sapiens with 7 samples.

Results

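The regions described here are the peaks of the kinase VRK1 in HT1080 cells, a human fibrosarcoma line, that also carried a peak of histone H2A phosphorylated at threonine T120 (pT120). A member was a VRK1 peak of siControl cells that overlapped a pT120 peak of siControl cells by at least 1 bp and overlapped no peak of the siVRK1 or the siControl input DNA. The rule left 272 of 17531 VRK1 peaks (1.55%), covering 78.5 kb. Chromatin immunoprecipitation with sequencing gave 7 libraries, 1 per group. HT1080 cells transfected with siRNA against VRK1 (siVRK1) gave a pT120 library, a library of H2A ubiquitylated at lysine K119 (ubK119) and an input, and cells transfected with a non-targeting siRNA (siControl) gave the same set of 3 and a VRK1 library. The line, the medium and the transfection reagent were shared by all groups. Library totals lay between 20687408 and 40442635 reads.

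VRK1 (vaccinia-related kinase 1) is a nuclear serine/threonine kinase that acts on chromatin proteins, and histone H2A is among its known substrates. Threonine T120 lies beside lysine K119 in the C-terminal tail of H2A. K119 carries the ubiquitin placed by Polycomb repressive complex 1, a mark associated with silenced genes. The labels present the series as a study of T120 phosphorylation in oncogenic transformation, and the siRNA comparison addresses how both H2A marks stood after siVRK1.

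Members were chosen by measured values: the peak calls of siControl VRK1, siControl pT120 and both inputs. Values of these libraries, and the siVRK1 over siControl ratio of pT120, are therefore given as description and support nothing. The siVRK1 pT120 library and both ubK119 libraries took no part in the rule. Each group is 1 library, so every difference is one between libraries with no replicate to check it. Intervals are 95% intervals and cover counting error only. They treat reads as independent, and PCR copies are counted as separate reads, so they can be too narrow even for counting error. There is no VRK1 library of siVRK1 cells, and the depletion of VRK1 was not measured. Per the file headers the antibody libraries of the siRNAs ran in separate lanes, so lane and siRNA cannot be told apart.

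Of all VRK1 peaks, 2841 overlapped a pT120 peak, and 2569 of these were set aside because they lay in input peaks. Outside input peaks the members were 272 of 11489 VRK1 peaks, or 2.37%, which is the rule itself. Each member had a pT120 partner of its own. The partner lay outside input peaks for 259 members and touched an input peak for 13. Members had a median length of 255 bp (200 to 1107), against 214 bp (200 to 922) for the 11217 other VRK1 peaks outside input peaks. Their median VRK1 height, the authors' highest stack of extended reads in the peak, was 16 reads (14 to 155), against 14 reads (14 to 40) for the others. Most of the peaks thus stood near the minimum height of 14 reads.

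The overlap between the VRK1 and pT120 peaks had a median of 198.5 bp (3 to 411) and covered a median of 65.5% of the VRK1 peak. The centres of the paired peaks lay a median of 74.5 bp apart, and within 100 bp for 168 members. In 34 members the pT120 peak covered the whole VRK1 peak, and in 191 it covered at least 50%. The shortest overlaps were 3, 6 and 8 bp, at 136751723 to 136751992, 138694349 to 138694622 and 139032486 to 139032772 on chromosome 3. Just outside the rule, the VRK1 peak on chromosome 20 (19329974 to 19330227) abutted a pT120 peak with a gap of 0 bp. The next nearest lay 3 bp away on chromosome 3 (183904143 to 183904464) and 6 bp away on chromosome 17 (79856683 to 79856982). The siControl pT120 counts of the members with the shortest overlaps were 12, 5 and 6 reads, and the abutting peak had 9.

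After siVRK1, pT120 at the members was still above its level at other VRK1 peaks, although it stood below the input of the same cells. In the siVRK1 pT120 library, which the rule did not use, the members had 0.794 RPM per kb (0.761 to 0.827) and the VRK1 peaks without pT120 had 0.440 (0.436 to 0.444), where RPM is the read count per 1000000 reads of the library total. This was 1.8 times as much (1.73 to 1.88). The siVRK1 input was 0.993 RPM per kb at the members and 0.958 at the other peaks, 1.04 times as much (0.996 to 1.08). Relative to that input, siVRK1 pT120 was 0.799 (0.755 to 0.846) at the members and 0.459 (0.454 to 0.464) at the others. The value at the members depended on the scaling. After siVRK1 and siControl libraries were scaled to 34172 regions called in input DNA, siVRK1 pT120 stood at 1.88 times (1.78 to 1.99) the input, above it. Those regions were called for high input, with 15187 RPM in the siVRK1 input and 6441 RPM in siVRK1 pT120. Scaling to them favours a higher ratio of any antibody library over input. The move above input is therefore partly the choice of regions.

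Both ubK119 libraries were also higher at the members. After siVRK1, ubK119 was 2.02 RPM per kb (1.958 to 2.07) at the members and 1.22 (1.22 to 1.23) at the other peaks, a ratio of 1.65 (1.60 to 1.69). In siControl cells it was 1.19 RPM per kb (1.15 to 1.22) at the members and 0.714 (0.709 to 0.719) at the others, a ratio of 1.66 (1.61 to 1.72). The siControl input was 1.09 times as high (1.04 to 1.14) at the members, so the difference in ubK119 exceeded that in input DNA. Against their own input, the members stood at 2.03 (1.93 to 2.13) for siVRK1 ubK119 and 1.34 (1.27 to 1.42) for siControl ubK119, where the other peaks had 1.28 and 0.881. VRK1 and siControl pT120, which set the rule, were 2.26 and 2.37 RPM per kb at the members and 2.003 and 0.931 at the others.

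**Figure D1:**
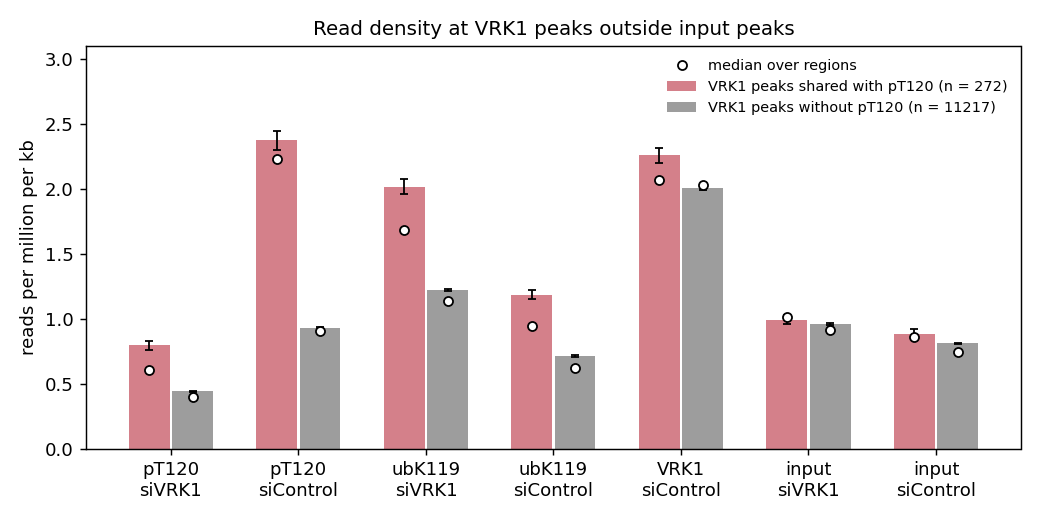
Read density in RPM per kb in each of the 7 libraries at the 272 VRK1 peaks shared with pT120 (left bar of each pair) and the 11217 without pT120 (right bar); error bars are 95% counting intervals and white circles are medians over regions. The pT120 siVRK1 and ubK119 bars are higher at the shared peaks (0.794 against 0.440 and, in siVRK1 cells, 2.02 against 1.22), while the input bars are close together; siControl pT120 and VRK1 were used to choose the peaks.

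Single members held few reads. The siVRK1 pT120 count had a median of 6 reads (0 to 53) and the siControl pT120 count 13 reads (0 to 116). For ubK119 the medians were 13 reads (0 to 140) in siVRK1 and 10 reads (0 to 105) in siControl cells. VRK1 had a median of 17 reads (1 to 138), and the inputs had 9 (0 to 38) in siVRK1 and 7 (0 to 27) in siControl cells. The count lay below the height for 72 members (26.5%); heights were made from extended reads. It lay below 0.5 of the height for 7 members, and those are described from a longer region.

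The lists of peaks called in the remaining antibody libraries gave the same order. A peak of the siVRK1 pT120 list overlapped 68 of 272 members (25%, 20.0 to 30.6) and 2.39% of the VRK1 peaks without pT120, where 2.92% of all VRK1 peaks outside input peaks had such an overlap. For siVRK1 ubK119 the count was 82 members (30.1%, 24.8 to 36.0), against 5.89% of the others and 6.47% of all. For siControl ubK119 it was 93 members (34.2%, 28.6 to 40.2), against 6.16% of the others and 6.82% of all. All 5 antibody lists met at 29 members, or 0.252% of the VRK1 peaks outside input peaks. Only members can meet this, because the siControl pT120 list set the rule. At the other end, 132 members had no peak in any of the 3 lists. Most of the other VRK1 peaks had none either, given their shares of 2.39%, 5.89% and 6.16%.

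The members were also set beside the 691 VRK1 peaks that overlapped a siControl ubK119 peak and no pT120 peak. Of these 691, 16.2% (13.5 to 19.2) had a siVRK1 pT120 peak and 27.8% (24.5 to 31.3) a siVRK1 ubK119 peak. Both shares are nearer to those of the members than to the 1.48% and 4.46% of the 10526 VRK1 peaks with neither mark. In density, siVRK1 pT120 at the members was 1.17 times (1.11 to 1.23) that of the 691 peaks, and siVRK1 ubK119 was 1.09 times (1.05 to 1.12). The siVRK1 and siControl inputs were 0.934 and 0.95 times those at the 691 peaks. Taken like for like, siVRK1 pT120 was 1.74 times (1.64 to 1.85) as high at the 93 members with a siControl ubK119 peak as at the 691 peaks. At the 179 members without one it was 1.32 times (1.24 to 1.41) that of the 10526 peaks with neither mark. The members thus had more siVRK1 pT120 in both sets, a split made after the values were seen.

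**Figure D2:**
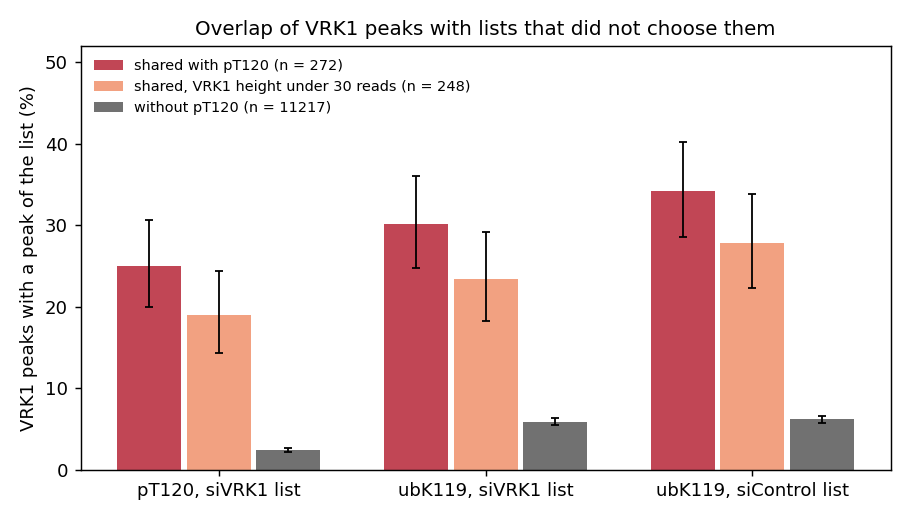
Percent of VRK1 peaks that overlap a peak of the siVRK1 pT120, siVRK1 ubK119 and siControl ubK119 lists, with exact 95% binomial intervals, for the shared peaks, the shared peaks with a VRK1 height under 30 reads, and the VRK1 peaks without pT120. Shared peaks stand at 25%, 30.1% and 34.2%, those under 30 reads at 18.95%, 23.4% and 27.8%, and peaks without pT120 at 2.39%, 5.89% and 6.16%.

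The taller a VRK1 peak was, the more often it was shared with pT120. The rule is part of this description. Of the VRK1 peaks outside input peaks with a height of 14 to 15 reads, 128 of 8855 (1.45%) were members. The share was 2.93% (59 of 2013) at 16 to 17 reads, 5.34% (23 of 431) at 18 to 19 reads and 23.03% (38 of 165) at 20 to 29 reads. Of the 25 peaks of 30 reads or more, 24 were members (96.0%, 79.6 to 99.9). The exception lay on chromosome 17 (43225892 to 43226376), with a height of 40 reads and the nearest pT120 peak 172152 bp away. It held 53 VRK1 reads, 2 pT120 reads in siVRK1 and 2 in siControl cells, 6 and 4 ubK119 reads, and 21 and 8 input reads. The siVRK1 input there was higher than at any of the 24 tall members, whose siVRK1 input counts reached at most 10 reads.

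The 24 tall members had more siVRK1 pT120 and ubK119 and less input DNA than the lower members. They lay on 17 chromosomes, with at most 3 on the same chromosome. All 24 had a peak in both ubK119 lists and 21 had one in the siVRK1 pT120 list. The siVRK1 pT120 density was 1.72 RPM per kb (1.56 to 1.89) at the tall members and 0.705 (0.673 to 0.739) at the 248 lower members. The siVRK1 ubK119 density was 4.49 (4.20 to 4.79) at the tall and 1.78 (1.72 to 1.84) at the lower members, and siControl ubK119 was 2.45 (2.27 to 2.64) and 1.06 (1.03 to 1.10). Input went the opposite way, with 0.430 RPM per kb (0.349 to 0.524) in siVRK1 and 0.575 (0.471 to 0.695) in siControl cells at the tall members, and 1.05 and 0.912 at the lower ones. Tall members stood at 3.99 times (3.20 to 5.03) the input for siVRK1 pT120, 10.4 times (8.47 to 12.99) for siVRK1 ubK119 and 4.26 times (3.47 to 5.28) for siControl ubK119. VRK1 stood at 7.77 times the siControl input there. These regions are thus high in the siVRK1 pT120 library and in both ubK119 libraries, which the rule did not use. Their high VRK1 and siControl pT120 and the absence of input peaks come from the rule and the choice by VRK1 height. Whether the high signal reflects the antibodies or a property of the DNA was not tested.

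**Figure D3:**
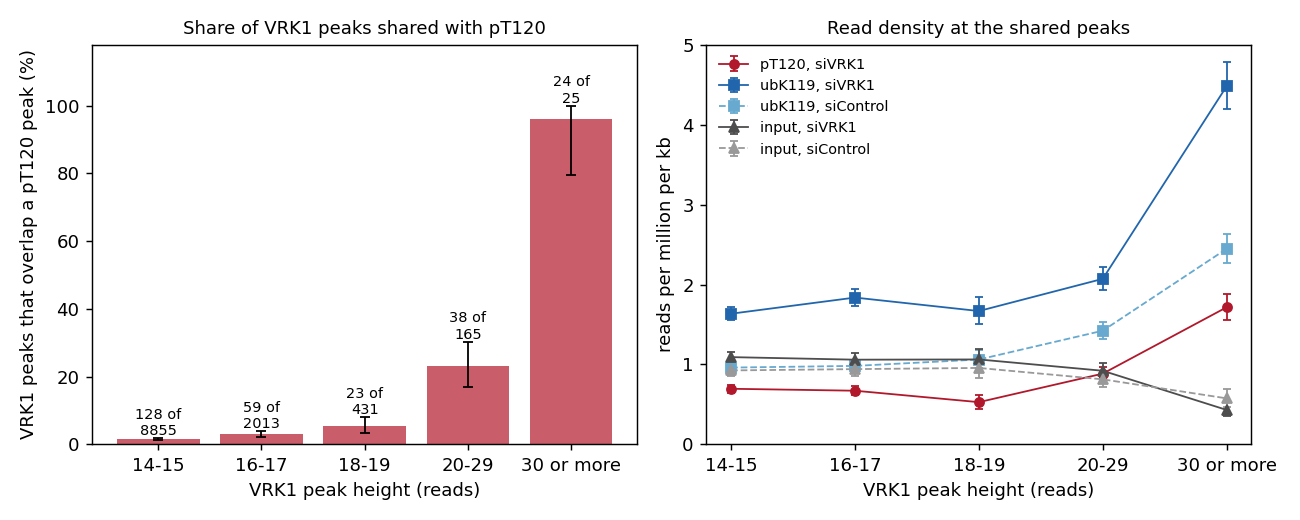
Left, percent of VRK1 peaks outside input peaks that overlap a siControl pT120 peak by VRK1 height, from 1.45% at 14 to 15 reads to 96.0% at 30 reads or more, with exact 95% intervals. Right, read density (RPM per kb, 95% counting intervals) at the shared peaks of each height: pT120 siVRK1 and both ubK119 libraries are highest at 30 reads or more, where both inputs are lowest.

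Several tall peaks were cut short in the deposited bounds, so the 24 were also counted in the longest region that any antibody list had there. In those regions siVRK1 pT120 had 3 to 53 reads, siVRK1 ubK119 23 to 174 and siControl ubK119 17 to 73. The inputs had 0 to 10 reads in siVRK1 and 1 to 11 in siControl cells. The siVRK1 pT120 level was above the siVRK1 input in 23 of 24 regions, with an interval above 1 in 19. The level of siVRK1 ubK119 was above its input in 24 of 24, each with an interval above 1. Of the VRK1 peaks without pT120, counted in their own bounds, 12.9% stood above the siVRK1 input for siVRK1 pT120 and 60.8% for siVRK1 ubK119. The summed ubK119 ratio of siVRK1 over siControl was 1.95 (1.78 to 2.13), with 22 of 24 regions above 1 and 13 with an interval above 1. At the VRK1 peaks without pT120 that had at least 10 ubK119 reads the median ratio was 1.75, so most of those peaks were above 1 too. The pT120 ratio, which the rule favours to be low, was 0.353 (0.317 to 0.392), with 22 of 24 regions below 1.

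The tallest members show the pattern singly. The region on chromosome 16 (3124472 to 3124876) had a height of 137 reads, and its pT120 count was 53 reads in siVRK1 and 111 in siControl cells. Its ubK119 count was 140 reads in siVRK1 and 71 in siControl cells, with 138 VRK1 reads and 10 and 7 input reads. The region on chromosome 12 (127861079 to 127861424) had 42 and 116 pT120 reads, 124 and 59 ubK119 reads, 117 VRK1 reads and 5 reads in each input. In RPM, ubK119 was 2.66 times (1.99 to 3.59) as high in siVRK1 as in siControl cells on chromosome 16 and 2.84 times (2.06 to 3.93) on chromosome 12. The highest VRK1 stack of the members, 155 reads on chromosome 1 (205204993 to 205205204), had only 2 VRK1 reads inside its bounds. The longer pT120 region there (205204806 to 205205198) held 155 VRK1 reads, 48 and 111 pT120 reads, 174 and 73 ubK119 reads, and 6 and 9 input reads in siVRK1 and siControl cells. All 3 regions thus had ubK119 higher after siVRK1. Their lower pT120 after siVRK1 and their inputs of at most 10 reads are directions that the rule favours.

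A pair on chromosome 2 had higher ubK119 ratios still. The region from 177127313 to 177127525 held 55 ubK119 reads in siVRK1 and 18 in siControl cells, a ratio of 4.12 (2.38 to 7.46), and the region from 232544422 to 232544632 held 62 and 26, or 3.22 times as much (2.005 to 5.30). The region on chromosome 3 (84163934 to 84164139) had 36 and 20 ubK119 reads, 9 and 25 pT120 reads, 52 VRK1 reads, and 0 and 3 input reads. Other tall members had ubK119 ratios with intervals that include 1. On chromosome 19 (16818203 to 16818468) the ratio was 1.26 (0.725 to 2.18), on chromosome 10 (28944473 to 28944693) 1.26 (0.887 to 1.78), and on chromosome 6 (63297998 to 63298208) 0.887 (0.50 to 1.54). The regions on chromosomes 10 and 6 were among the 4 with the highest pT120 ratios of the 53 members with at least 30 pT120 reads. They had 47 and 27 pT120 reads in siVRK1 and siControl cells on chromosome 10, and 32 and 18 on chromosome 6. Their pT120 RPM ratios were 0.999 (0.610 to 1.67) and 1.02 (0.556 to 1.93), near 1 by that ranking and with wide intervals.

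The excess at the members was smaller without the tall regions. At the 248 members under 30 reads, siVRK1 pT120 was 1.60 times (1.53 to 1.68) that of the other VRK1 peaks under 30 reads, siVRK1 ubK119 1.45 times (1.41 to 1.5) and siControl ubK119 1.49 times (1.44 to 1.55), while the inputs were 1.09 times (1.05 to 1.14) in siVRK1 and 1.13 times (1.07 to 1.18) in siControl cells. At the minimum height of 14 to 15 reads, where VRK1 density was 2.0 RPM per kb at members and 1.99 at the others, siVRK1 pT120 was 1.59 times as high (1.48 to 1.71). A siVRK1 pT120 peak overlapped 14.1% (8.55 to 21.3) of these 128 low members and 1.95% of the others of that height. The 132 members in none of the other lists were close to the other VRK1 peaks. Their siVRK1 pT120 density was 1.14 times (1.05 to 1.23), siVRK1 ubK119 1.10 times (1.04 to 1.16) and siControl ubK119 0.961 times (0.901 to 1.02), with inputs at 1.04 and 1.12 times. Those members were set apart by low calls in these same libraries, so their low levels are partly the choice itself.

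Between the siRNAs, ubK119 was higher after siVRK1 at the members. Set against the other VRK1 peaks, the size of that difference depended on which peaks were taken. Summed over the members it was 158.1 RPM in siVRK1 and 93.0 RPM in siControl cells, a ratio of 1.70 (1.63 to 1.77). The input ratio over the same regions was 1.13 (1.06 to 1.20), from 77.9 RPM in siVRK1 and 69.2 RPM in siControl cells. At VRK1 peaks without pT120 the ubK119 ratio was 1.71 (1.70 to 1.73), and the ratio of both ratios was 0.991 (0.948 to 1.04). This pooled value mixes peaks with and without siControl ubK119, since 34.2% of the members but 6.16% of the others had a siControl ubK119 peak. Among peaks that had one, the ubK119 ratio was 1.42 (1.34 to 1.5) at the 93 members and 1.21 (1.17 to 1.24) at the 691 others, and the members' ratio was 1.17 times (1.10 to 1.25) that of the others. Among peaks that had none, it was 2.14 (2.001 to 2.28) at the 179 members and 1.802 (1.78 to 1.82) at the 10526 others, 1.19 times as high (1.11 to 1.27). The input ratio of the members was 0.927 times (0.834 to 1.03) that of the others in the set with such a peak and 0.981 times (0.910 to 1.06) in the set without. The split was made after the values were seen, and it uses the siControl ubK119 library, which also enters the ratio. Against the unsplit sets, the ratio of all 272 members was 1.41 times (1.34 to 1.48) that of the 691 peaks and 0.943 times (0.902 to 0.985) that of the 10526. By chromosome, it was 0.668 times (0.578 to 0.773) that of the other VRK1 peaks on chromosome 1 and 1.16 times (1.03 to 1.31) on chromosome 18. On chromosome 3 it was 1.13 times (1.003 to 1.26). The intervals on chromosomes 5, 13 and 20 included 1, at 1.13 (0.992 to 1.28), 1.11 (0.864 to 1.44) and 1.18 (0.977 to 1.42). The pooled ratio of both ratios, near 1, thus stood beside values above 1 in both sets and a value below 1 on chromosome 1. Scaled to the input regions, where ubK119 itself was 12110 RPM in siVRK1 and 8238 RPM in siControl cells, the ratio at the members was 1.16 (1.11 to 1.21).

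Region by region, 97 of the 242 members with at least 10 ubK119 reads had a ratio of 2 or more (40.1%), where 43% of all VRK1 peaks outside input peaks did. A ratio of 0.5 or less was found at 5 of 242, with 3.67% of all peaks. The median ratio was 1.75 at members and 1.75 at the others. Scaled to the input regions, 55 members reached a ratio of 2, and no share over all peaks is given for that scaling. The input gave a ratio of 2 or more at 32 of 221 members (14.5%, with 19.8% of all peaks) and of 0.5 or less at 14 (6.33%, with 5.77% of all). For pT120 the rule fixes the direction in large part, and 195 of 248 members (78.6%) had a ratio of 0.5 or less, where 54.2% of all peaks did. No member of 248 reached a pT120 ratio of 2, where 3.58% of all peaks did. The summed pT120 ratio of 0.335 (62.3 RPM in siVRK1, 186.2 RPM in siControl cells) became 0.549 after scaling to the input regions.

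**Figure D4:**
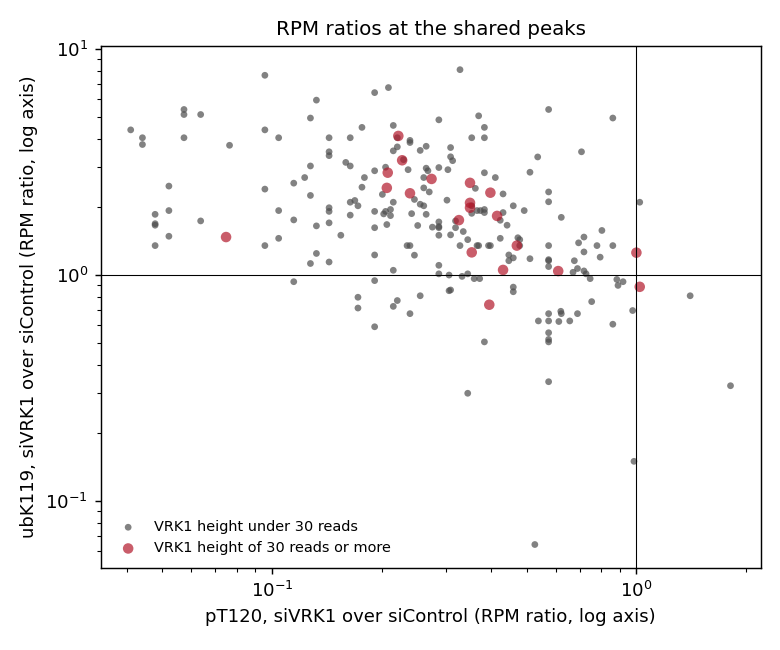
RPM ratio of siVRK1 over siControl for pT120 (horizontal, log axis) and ubK119 (vertical, log axis) at the 230 shared peaks with at least 10 reads per mark and none at 0; red points are the 20 peaks with a VRK1 height of 30 reads or more and lines mark a ratio of 1. Most points lie at a pT120 ratio below 1, which the rule favours, and a ubK119 ratio above 1, and tall and lower peaks overlap.

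The highest ubK119 ratios lay at 4 regions on 3 chromosomes. Among the 99 members with at least 30 ubK119 reads, the region on chromosome 19 from 47016855 to 47017418 ranked at the top, with 38 reads in siVRK1 and 10 in siControl cells and a ratio of 5.13 (2.51 to 11.5). Its inputs had 17 and 8 reads. The region on chromosome 5 from 1173714 to 1173918 followed at 4.38 times (1.93 to 11.2), then the tall region on chromosome 2 (177127313 to 177127525) at 4.12 times and the region on chromosome 5 from 1052942 to 1053153 at 4.05 times (2.11 to 8.26). The inputs of both chromosome 5 regions were also higher in siVRK1 cells, with 7 and 2 reads and with 12 and 1 reads, while that on chromosome 2 had 3 and 5. All 4 had a siVRK1 ubK119 peak. The tall region on chromosome 2 also had a siControl ubK119 peak and lay in all 5 antibody lists, and the other 3 had none in siControl cells. A ranking by this ratio favours regions with few siControl ubK119 reads.

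The lowest ubK119 ratios included regions with much siVRK1 pT120. On chromosome 8 (82754657 to 82754857) ubK119 was 6 reads in siVRK1 and 25 in siControl cells, a ratio of 0.324 (0.109 to 0.809). The same region had 41 pT120 reads in siVRK1 and 13 in siControl cells, the highest pT120 ratio of the 53 members with at least 30 pT120 reads, at 1.81 (0.951 to 3.68). Its inputs had 10 and 8 reads. On chromosome 1 (17051979 to 17052472) the counts were 22 and 49 for ubK119, at 0.606 times (0.349 to 1.02), and 36 and 24 for pT120, at 0.861 times (0.50 to 1.51). The regions on chromosome 1 (11308480 to 11308854) and chromosome 21 (11129060 to 11129426) had ubK119 ratios of 0.519 (0.223 to 1.11) and 0.623 (0.286 to 1.28). Of these 4 ratios, only the one on chromosome 8 has an interval below 1. In the longest region that any antibody list had there, it was 0.311 (0.105 to 0.773). Counted that way, the region at 17051979 on chromosome 1 had 0.899 (0.580 to 1.38). On chromosome 21 the longest region, of 1735 bp, had 155 and 164 ubK119 reads and a ratio of 1.28 (1.02 to 1.60). The low ratio on chromosome 21 thus depended on the bounds.

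The ubK119 ratio was lower at members that had a siVRK1 pT120 peak. The 68 members with a siVRK1 pT120 peak had a ubK119 ratio of 1.37 (1.28 to 1.47) and the 204 without had 1.93 (1.83 to 2.04), and the ratio of both was 0.711 (0.651 to 0.777). The input ratio was 0.940 (0.836 to 1.06) with such a peak and 1.20 (1.12 to 1.29) without, so it moved in the same direction, and its part in the result was not tested. The density of siControl ubK119 was 1.92 times (1.8 to 2.05) as high at the members with a siVRK1 pT120 peak as at those without, and that of siVRK1 ubK119 1.36 times (1.28 to 1.45). Of the 68, 29 had a peak in both ubK119 lists and 24 in the siControl ubK119 list only, against 20 and 20 of the 204. Split by siControl ubK119 peak instead, the ratio of both ubK119 ratios was 0.663 (0.608 to 0.723). That library is the denominator of the ubK119 ratio, so the 2 splits cannot be told apart here. Across the 272 members, siVRK1 pT120 per kb had a Spearman rho of 0.53 with siControl ubK119 and 0.12 with siVRK1 ubK119. Without the tall members the values were 0.44 and -0.06 over 248 regions, and at the 11217 other peaks 0.24 and -0.03. With the siVRK1 input it was -0.02 over the 272. These correlations describe regions that share libraries and depth and carry no test. The rho of siVRK1 pT120 was thus higher with the ubK119 of siControl cells than with that of siVRK1 cells, a difference that was not tested.

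Members were spread over 23 chromosomes, and a few blocks held many of them. Chromosome 3 held 50 members (18.4%), near its 19.6% of the other VRK1 peaks. Chromosome 18 held 42 (15.4%, 11.4 to 20.3), against 3.50% of the others, and chromosomes 5, 1, 20 and 13 held 24, 22, 18 and 14. Of the members, 147 (54.0%) lay within 1 Mb of another. The same held for 98.5% of the 11217 other VRK1 peaks. Nearness was counted within each set, and a far larger set has nearer neighbours by number alone. The comparison therefore cannot tell whether the members were clustered. On chromosome 18, 40 of 42 lay between 6 and 11 Mb, where 13.9% of the VRK1 peaks outside input peaks were members. That stretch held 2059 VRK1 peaks in all, so most VRK1 peaks there lay in input peaks. On chromosome 5, 14 of 24 members lay between 1 and 2 Mb, and on chromosome 20, 15 of 18 lay between 19 and 26 Mb. Members were 11.9% and 4.50% of the VRK1 peaks outside input peaks in these 2 stretches, which also held 104 and 318 VRK1 peaks without pT120. These stretches were chosen after their values were seen. Input density on chromosome 18 was 1.25 RPM per kb in siVRK1 and 1.15 in siControl cells at the members, above the 0.993 and 0.882 of all members, and the part of DNA copy number in the blocks was not tested.

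The excess of siVRK1 pT120 at the members was not the same on every chromosome. On chromosome 3 the members had 0.519 RPM per kb (0.458 to 0.586) and the other VRK1 peaks of that chromosome 0.50 (0.490 to 0.510), a ratio of 1.04 (0.914 to 1.17). A siVRK1 pT120 peak was found at 2 of the 50 members there (4%, 0.488 to 13.7) and at 1.72% of the 2203 other VRK1 peaks. On chromosome 5 the ratio was 1.16 (0.981 to 1.37) and on chromosome 13 it was 1.12 (0.874 to 1.42). On chromosome 18 the members had 1.05 RPM per kb and the others 0.821, a ratio of 1.28 (1.17 to 1.41), and a siVRK1 pT120 peak overlapped 19 of 42 members (45.2%) and 25.7% of the others. On chromosome 20 the ratio was 1.54 (1.28 to 1.84) and on chromosome 1 it was 2.09 (1.81 to 2.41). Over all chromosomes other than 3, 5 and 18 it was 2.15 (2.03 to 2.27). The tall members, which had more siVRK1 pT120, were 3 of 22 members on chromosome 1, 1 of 50 on chromosome 3 and 1 of 42 on chromosome 18. Their part in the differences between chromosomes was not tested. The members of chromosome 5 had the most siVRK1 ubK119 of these 6 chromosomes, with 2.59 RPM per kb (2.39 to 2.81) against 1.43 at the other VRK1 peaks there.

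**Figure D5:**
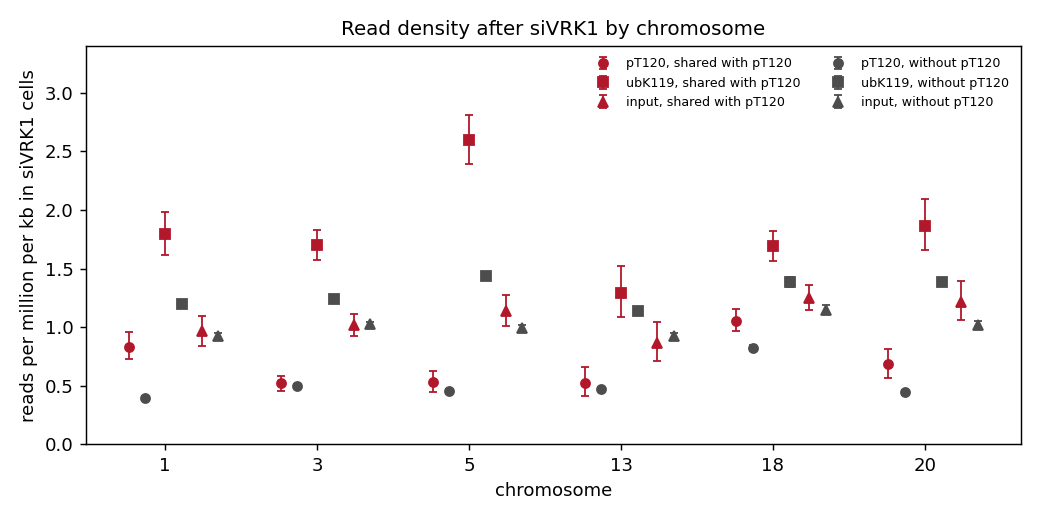
Read density (RPM per kb, 95% counting intervals) in the siVRK1 libraries at shared peaks (red, left of each pair) and VRK1 peaks without pT120 (grey) on the 6 chromosomes with most shared peaks; circles are pT120, squares ubK119 and triangles input. The pT120 pair nearly coincides on chromosome 3 (0.519 and 0.50) and is far apart on chromosome 1 (0.834 and 0.399), and ubK119 is highest on chromosome 5 (2.59).

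The densest cluster was on chromosome 5, with 8 members in the 100 kb from 1200000 to 1300000. Among them was the longest member (1227449 to 1228556, 1107 bp). It held 32 pT120 reads in siVRK1 and 32 in siControl cells, 91 and 105 ubK119 reads, 71 VRK1 reads, and 38 and 27 input reads. Summed over the 8, ubK119 was 9.61 RPM in siVRK1 and 6.75 RPM in siControl cells, a ratio of 1.42 (1.20 to 1.69), and pT120 was 1.83 and 6.72 RPM, a ratio of 0.273 (0.200 to 0.368). The input ratio over the 8 was 1.69 (1.26 to 2.29), higher than that of ubK119. The rise of ubK119 in this cluster was thus not above that of its input. On chromosome 5 the region from 1555316 to 1555682, outside the cluster, had 73 and 25 ubK119 reads, a ratio of 3.94 (2.47 to 6.48), with 19 and 8 input reads.

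On chromosome 18, 5 windows of 100 kb held 3 or 4 members each, starting at 6600000, 6900000, 8900000, 9500000 and 9600000. Their ubK119 ratios lay between 1.10 and 1.73, and only the first and the one from 9500000 had intervals above 1, at 1.12 to 2.27 and 1.19 to 2.47. Their input ratios lay between 0.868 and 1.62. In the first window the input ratio was 1.52 (0.929 to 2.55) beside a ubK119 ratio of 1.59, and in the one from 6900000 it was 1.62 (0.923 to 2.92) beside 1.73, so ubK119 differed there by about as much as the input. In the window from 9500000 the input ratio was 1.16 (0.790 to 1.7) beside 1.71 for ubK119. The longest member of that chromosome (7100653 to 7101515) had 31 pT120 reads in siVRK1 and 20 in siControl cells, a ratio of 0.890 (0.491 to 1.65), 22 and 33 ubK119 reads, and 27 and 16 input reads. The region from 8931608 to 8931893 counted 22 pT120 reads in siVRK1 and 9 in siControl cells, at 1.40 times (0.621 to 3.46) in RPM. The longer siVRK1 pT120 region over it, of 1883 bp, held 111 and 83 pT120 reads, at 0.768 times (0.573 to 1.03). The remaining cluster lay on chromosome 1 (17000000 to 17100000) and held 3 members, where the siVRK1 level was 1.10 times (0.833 to 1.46) the siControl level for ubK119 and 1.42 times (0.911 to 2.25) for input. On chromosome 3, the member from 128133442 to 128134184 carried 126 ubK119 reads in siVRK1 and 97 in siControl cells, a ratio of 1.75 (1.33 to 2.31), over 26 and 19 input reads. It had only 5 pT120 reads in siVRK1 cells, against 25 in siControl cells. High ubK119 after siVRK1 was thus found at members with much and with little remaining pT120.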

How the data were processed

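Lysates of fixed, sonicated nuclei were immunoprecipitated, amplified by PCR and sequenced, per the labels' protocols. CASAVA 1.8.2, Bowtie 0.12.8, Partek and the build hg19 stand in the submitters' processing notes, without roles. Per the file headers peaks were called by library, under settings not given in the sources used here. For each peak, the authors deposited the raw read count of each of the 7 libraries in the region. They also deposited a peak height, a signal of extended reads, with the same height as RPM, a Mann-Whitney p-value and the percent of each region covered by other lists. Heights and p-values served to describe peaks, and the percent covered was checked against the overlaps computed, with 0 mismatches. Library totals are height divided by RPM, and RPM here is the deposited count per 1000000 reads of that total. A level of 3 reads is 0.0742 to 0.145 RPM, by library.

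Ratios of summed reads have exact conditional binomial 95% intervals, shares exact Clopper-Pearson intervals and levels exact Poisson intervals (Python 3.11.15, SciPy 1.17.1, pandas 2.3.3, NumPy 2.4.6, matplotlib 3.10.9). Ratios of ratios have log-scale Poisson intervals. The steps were tested on simulated data. Groups came from the sample titles. No p-value was computed, because regions are not replicates. A fold of 2 was read where both libraries held at least 10 reads together. Regions were named by rank: most VRK1, siVRK1 pT120 or siVRK1 ubK119 reads, extreme ratios among regions with at least 30 reads, length, shortest overlap, and windows of 100 kb with at least 3 members. The 7 members whose count lay below 0.5 of the height, the tall exception and the stretches of chromosomes were named after their values were seen. The members and lists were chosen with earlier results of these data known. The scaling to input regions used input peaks holding 100 reads or fewer of either input. Positions are in hg19 as deposited, and their first base may be numbered 0 or 1. No hg19 sequence or annotation was used here, so regions carry no gene names.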

Additional observations from a re-analysis of the deposited data

How the results depend on the processing

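Of 180 alternatives, 96 were taken as leaving the result unchanged, 80 as moving it, and 4 turned it to the other side of 1. For a result with a counting interval, unchanged meant staying within that interval. Counts of regions have no interval, and there 191 regions against 272 were taken as unchanged and 172 as moved. Where a value moved, the cause was not tested. Regions required to have a VRK1 height of at least 20 and a pT120 height of at least 15 reads numbered 37, with an input ratio of 0.867, siVRK1 pT120 at 2.52 times and siVRK1 ubK119 at 6.32 times input. Their siControl ubK119, VRK1 and pT120 stood at 3.15, 5.59 and 6.52 times input, siVRK1 pT120 at 2.69 times the other VRK1 peaks, the list shares were 70.3% for siVRK1 pT120 and 86.5% for each ubK119 list, and 13 regions had ubK119 2-fold higher and 27 pT120 2-fold lower. With at most 10 reads in each input, 172 regions gave a pT120 ratio of 0.313, an input ratio of 1.01, siVRK1 pT120 at 1.04 and siVRK1 ubK119 at 2.51 times input, siControl ubK119, VRK1 and pT120 at 1.47, 3.08 and 3.34 times input, siVRK1 pT120 at 1.91 times the other peaks, and 59 and 124 regions past the folds. Without chromosomes 3, 5 and 18, 156 regions gave 0.959 and 2.38 for siVRK1 pT120 and ubK119 over input, 1.56, 2.95 and 3.20 for siControl ubK119, VRK1 and pT120, a ubK119 ratio 0.941 times that of the other peaks, siVRK1 pT120 2.15 times the others, shares of 36.5% and 41.7% for siVRK1 and siControl ubK119, and 54 and 109 regions past the folds. Scaled to the input regions, ubK119 and pT120 ratios were 1.16 and 0.549, siVRK1 pT120 and ubK119 1.88 and 2.54 times input, siControl ubK119, VRK1 and pT120 2.38, 3.29 and 3.71 times input, and 55 and 129 regions passed the folds. Every ratio over input rose under this scaling, a direction that is favoured because the regions are input peaks. Counting the pT120 peak gave a pT120 ratio of 0.297 and VRK1 and siControl pT120 at 2.28 and 3.09 times input. With at least 50% of the VRK1 peak covered, siVRK1 pT120 and ubK119 were 0.961 and 2.16 times input, VRK1 and siControl pT120 2.71 and 3.15, and siVRK1 pT120 2.07 times the others. Without the regions of all 5 lists the values were 0.648 and 1.70 for siVRK1 pT120 and ubK119 over input, 1.14, 2.30 and 2.36 for siControl ubK119, VRK1 and pT120, 1.53 times the others for siVRK1 pT120, and shares of 16.05%, 21.8% and 26.3% for siVRK1 pT120, siVRK1 ubK119 and siControl ubK119. Without the 10 members with most VRK1 reads they were 0.738, 1.79, 1.22, 2.38, 2.50 and 1.69 in the same order, without shares. Chosen after seeing the data, comparing only peaks with, or only peaks without, a siControl ubK119 peak put the ubK119 ratio at 1.17 and 1.19 times that of the other peaks, leaving out heights of 30 or more gave 0.674, 1.70, 1.17, 2.24, 2.32 and 1.60 and shares of 18.95%, 23.4% and 27.8%, and the longest antibody region gave a pT120 ratio of 0.424 and VRK1 and siControl pT120 at 1.961 and 2.19 times input. A minimum of 20 reads for a fold left 63 and 91 regions. The ubK119 ratio lay between 1.16 and 1.74 under every alternative computed for it. No paired analysis was possible because each group has 1 library and the labels give no replicate numbers. Depth limits single regions, whose median count was 6 to 17 reads by library.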
